A study of Mus musculus with 17 samples.

Results

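The genes on either side of Nus1 on mouse chromosome 10 were examined in livers of mice that lack Nus1 in the liver. Nus1 encodes NgBR, a subunit of the enzyme that makes the long isoprenoid chain of dolichol, the lipid on which N-glycans are built. The genes were chosen by position and level: listed in both deposited count tables, with a start on chromosome 10 between 44000000 and 61000000, Nus1 left out, and a mean of at least 1 CPM in any group (CPM is the read count scaled to library size, so that libraries can be compared). Of 106 genes listed in that window, 66 were in both tables and 55 of these passed the level, out of 19032 genes in both tables. The levels therefore took part in choosing the genes. The 3 genes just inside the level were Gm6983, Spock2 and Gm48065, with a highest group mean of 1.01, 1.04 and 1.54 CPM, and the 3 just outside were Fam184a, Gm46223 and 4930466K18Rik, with 0.876, 0.824 and 0.788 CPM.

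A gene disrupted in embryonic stem cells is inherited together with the DNA around it. When those cells come from another strain than the mice they are bred into, neighbouring genes can keep the variants of the donor strain through many generations, and some such variants alter expression. A change that is carried by the chromosome would usually be present whatever the mice eat, so whether a genotype difference repeats between diets is the question asked of each flanking gene.

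The samples were bulk RNA-seq libraries of male mice on a C57BL6 background in 5 groups, each on its diet for 16 weeks. High fat diet (HFD) gave 4 wild-type (WT) livers and 4 livers of liver-specific NgBR knockout mice (N-LKO). Western diet (WD), which is rich in fat and cholesterol, gave 3 WT livers, 3 N-LKO livers and 3 tumors of N-LKO mice. N-LKO mice carry loxP-flanked NgBR alleles and a Cre driven by the albumin promoter, which is active in hepatocytes, so other liver cells keep the gene. The labels give no age. The study's methods describe crossing Cre mice heterozygous for the loxP-flanked allele with heterozygous mice, but not which offspring served as WT. Whether WT mice carried loxP-flanked alleles or Cre is thus not given in the sources used here. The strain in which the allele was first made is not given either. The labels call the libraries biological replicates and do not tie tumors to the livers of the same mice.

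Total counts ran from 9096109 to 12215764 for the HFD libraries and from 15494718 to 20200578 for the WD libraries, which are in separate tables, so the diets were not compared directly. The targeted gene fell as labelled. Nus1 was at 88.0 ± 5.88 CPM in WT livers and 35.0 ± 3.98 CPM in the N-LKO liver under HFD (SD, n = 4 each). Under WD it was at 94.3 ± 5.56 CPM in WT liver, 46.6 ± 4.74 CPM in the N-LKO liver and 35.8 ± 7.58 CPM in tumor (SD, n = 3 each). All 5 hepatocyte markers (Alb, Ttr, Apoa1, Serpina1c and Cyp2e1) were measured in every group. Their summed level ran from 72583 to 83330 CPM in WT and from 64629 to 80210 CPM in knockout livers under HFD. Under WD it ran from 48517 to 59964 CPM in WT liver, from 34885 to 42357 CPM in N-LKO liver, without overlap, and from 32542 to 56711 CPM in tumor. The summed stellate cell and fibroblast markers ran from 225 to 549 CPM in WT and from 550.3 to 674 CPM in knockout livers under WD, again without overlap. Under HFD the stellate sum ran from 103.8 to 185.4 CPM in WT and from 155 to 226 CPM in knockout livers. Kupffer cell and macrophage markers ran from 115.5 to 157 and from 58.7 to 127.98 CPM in the same order. Endothelial markers ran from 86.5 to 101 and from 59.1 to 87.4 CPM. These HFD ranges overlapped. The part of cell content in the values below was not tested in either diet. WT WD replicate 2 stood apart in composition, with a scaling factor of 0.806 against 0.941 to 1.15 in the other WD libraries.

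Of the 55 genes, 44 were protein-coding and 11 were not, 7 of these being pseudogenes. There were 15 before Nus1 and 40 after it, with 12 starting within 1 Mb, 17 within 2 Mb and 22 within 5 Mb. The count tables hold estimated counts, in which a read that matches several places is divided among them. In 19 genes every count was whole, and in 11 the count was fractional in all 17 libraries. Transcripts were cut into stretches of 75 bases, the read length stated in the methods of the study. Those of 23 genes had at least 1 stretch in common with another gene, on either strand, and those of 32 had none. The methods also state a number of sequencing cycles below 75, and shorter stretches would be shared at least as often.

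Gpx4-ps2, a transcribed processed pseudogene of Gpx4, was the clearest case of shared sequence. Gpx4 itself encodes the glutathione peroxidase that reduces lipid peroxides in membranes and lies outside the window on the same chromosome. In the GENCODE annotation of build GRCm38, Gpx4-ps2 occupies chr10:45875291-45876086 on the plus strand, and 76.0% of its 75-base stretches also occur in another gene, and all of those in Gpx4. Over 762 aligned bases, 760 were identical. The following stretches, in coding sequence of Gpx4 (chr10:80055928-80056094, plus strand, exons 5 to 6) and in Gpx4-ps2 (chr10:45875733-45875807, plus strand, its exon), show 1 of the 2 differences, C38T, in capitals, with positions counted from 1 at the 5′ end of the stretch and the base of Gpx4 first. They are shown because a read that does not cross such a base matches both genes.
Gpx4: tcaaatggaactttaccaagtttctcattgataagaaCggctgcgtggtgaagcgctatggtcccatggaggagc
Gpx4-ps2: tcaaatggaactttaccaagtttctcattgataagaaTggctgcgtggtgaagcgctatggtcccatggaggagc

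Under HFD, 5 of the 45 flanking genes with enough counts to be tested differed between N-LKO and WT liver, 2 higher and 3 lower. Gpx4-ps2 and Gm47644, a noncoding RNA inside an intron of Cep85l, rose. Ascc3, Serinc1 and Ranbp2 fell. The test was edgeR's quasi-likelihood test with Benjamini-Hochberg adjustment over all 13460 genes tested, and a gene past an adjusted p of 0.05 is called. Over all genes 4.84% were called, 2.56% higher and 2.29% lower. The median log2 fold change of the 45 genes was -0.02, against -0.01 over all genes, and their median absolute change was 0.15, against 0.19. Since the tissue is bulk, fewer cells of a type and less RNA per cell cannot be told apart in any of these values.

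Gpx4-ps2 was at 187.4, 189, 155 and 163.35 CPM in the WT livers and at 256, 223, 239 and 259 CPM in the N-LKO livers under HFD. Every N-LKO library lay above every WT library. The log2 fold change was 0.49 (SE 0.09, adjusted p = 0.017). Gpx4 moved in the same way, from 41.8 ± 4.01 to 56.9 ± 5.87 CPM (SD, n = 4 each), a log2 fold change of 0.45 (adjusted p = 0.030). The sum of Gpx4 and Gpx4-ps2, which does not depend on how shared reads were divided between them, ran from 198 to 232 CPM in WT livers and from 274 to 320 CPM in the N-LKO livers, again without overlap. The counts of both genes were fractional in all 17 libraries, and the share of the pseudogene's own RNA in its value was not tested.

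Gm47644 (chr10:53337753-53345085, minus strand) was at 2.18, 1.81, 2.66 and 1.22 CPM in WT livers and at 3.06, 5.26, 3.26 and 5.59 CPM in the N-LKO livers under HFD. The groups did not overlap, at 12 to 70 reads a library. The log2 fold change was 1.14 (SE 0.29, adjusted p = 0.048). Gm47644 lies within Pln, on the opposite strand. Pln encodes phospholamban, an inhibitor of the calcium pump of the sarcoplasmic reticulum, and 58.7% of its 75-base stretches are shared on either strand. Pln was at 1.25, 0.668, 1.66 and 0.915 CPM in WT livers and at 0.331, 0.658, 1.09 and 0.559 CPM in the N-LKO livers, too low to be tested under HFD. The sum of both was 3.09 ± 0.989 CPM in WT livers and 4.95 ± 1.31 CPM in the N-LKO livers (SD, n = 4 each), and its ranges overlapped, at 2.13 to 4.33 and 3.39 to 6.15 CPM.

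Ascc3 encodes the helicase of a complex that acts in DNA alkylation repair and on stalled ribosomes. It was at 33.0, 41.4, 28.97 and 34.3 CPM in WT livers and at 28.1, 23.6, 24.2 and 22.8 CPM in the N-LKO livers under HFD. The highest N-LKO library lay just under the lowest WT library. The log2 fold change was -0.48 (SE 0.12, adjusted p = 0.041). Ascc3 starts at -1825 kb from the start of Nus1 and is the nearest called gene before it.

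Serinc1, a multipass membrane protein of the serine incorporator family, was at 208, 227, 225 and 240 CPM in WT livers and at 178, 170, 189 and 160 CPM in the N-LKO livers. The groups were separate, with a log2 fold change of -0.37 (SE 0.08, adjusted p = 0.030). Ranbp2, a nucleoporin on the cytoplasmic face of the nuclear pore, was at 115, 127, 109 and 121 CPM in WT livers and at 95.6, 92.2, 88.5 and 95.6 CPM in the N-LKO livers. Its groups were separate too, with a log2 fold change of -0.34 (SE 0.08, adjusted p = 0.029). Man1a, a Golgi mannosidase that trims N-glycans, was at 241, 294, 236 and 266 CPM in WT livers and at 231, 190, 226 and 202 CPM in the N-LKO livers. Its groups did not overlap either, but its log2 fold change of -0.29 (SE 0.10) was not called (adjusted p = 0.11). In all, 6 of the 45 genes had no overlap between genotypes under HFD, or 13.3%, against 14.8% of the 13416 genes tested in both diets.

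**Figure D1:**
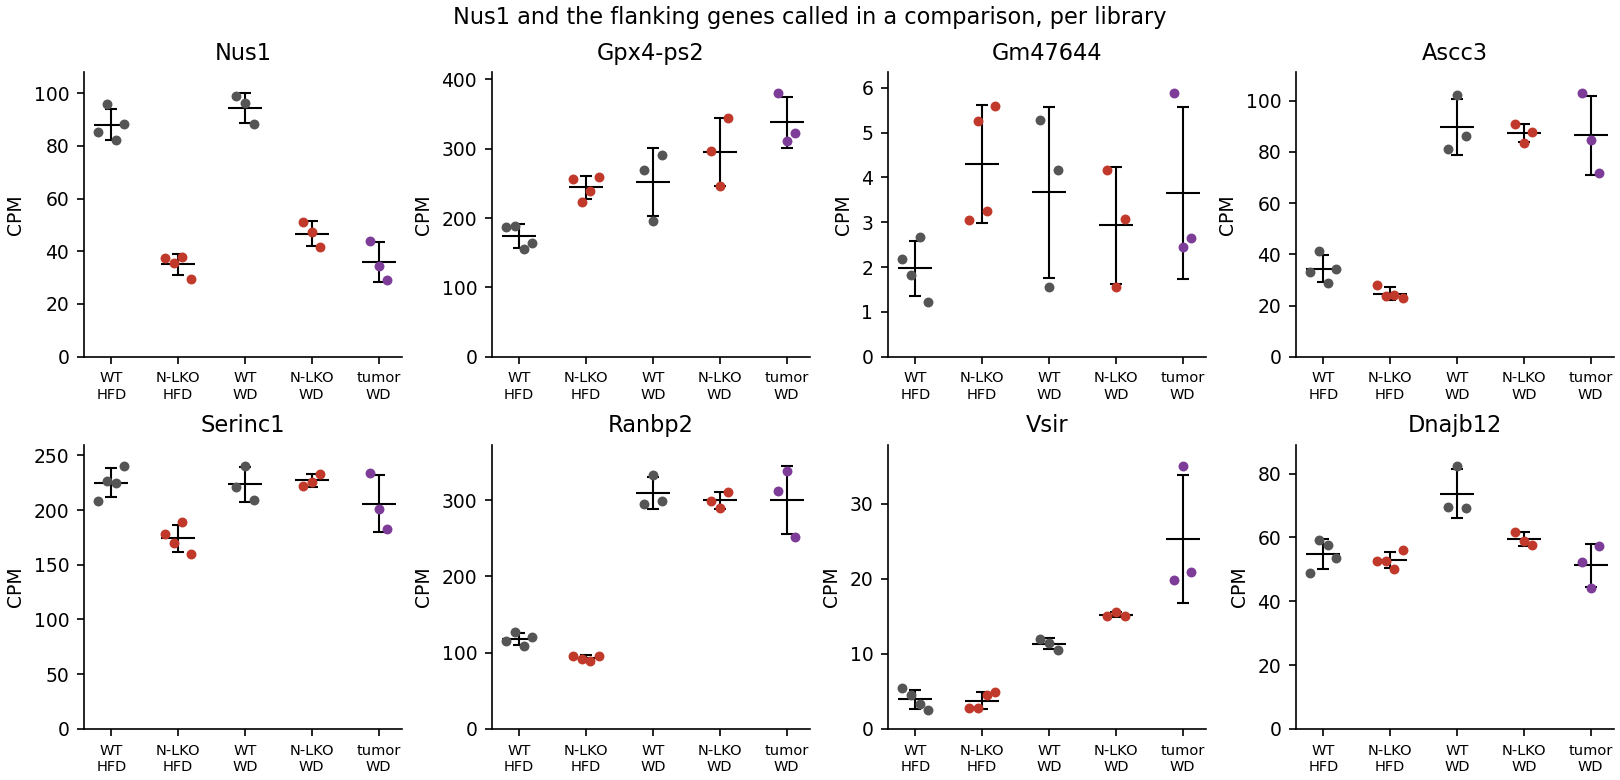
CPM of Nus1 and of the 7 flanking genes called in any comparison, by group; each point is 1 library and the bars are the mean and SD (n = 4 for HFD groups, n = 3 for WD groups). Nus1 is lower in N-LKO in both diets, whereas Gpx4-ps2, Gm47644, Ascc3, Serinc1 and Ranbp2 are separate between WT and N-LKO livers under HFD and overlap under WD on this scale, which has no correction for transcript length.

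The HFD calls changed with single libraries and with an offset for transcript length. The count of called flanking genes was 5 with all 8 libraries, beside 652 genes over the whole table. Leaving out N-LKO replicate 1, 2, 3 or 4 gave counts of 0, 3, 2 and 1, beside 181, 580, 276 and 322. Leaving out WT replicate 1, 2, 3 or 4 gave counts of 3, 1, 6 and 0, beside 597, 179, 596 and 225. The whole-table count thus moved with single libraries too. The direction of the 5 genes called with all libraries held in each of these fits. Under HFD the log2 fold change fell with the length of the longest annotated transcript, with a Spearman rho across genes of -0.36 over the 45 flanking genes and -0.35 over all genes, which are not independent replicates. Under WD the trend was the opposite, with a rho of 0.24 over the 55 flanking genes and 0.13 over all genes. With an offset for transcript length and GC content rho under HFD was 0.04 and -0.03 and under WD 0.02 and -0.0042, and under HFD no flanking gene was called, against 270 genes over the whole table. The log2 fold changes with the offset were 0.32 for Gpx4-ps2 (adjusted p = 0.12), 1.11 for Gm47644 (0.083), -0.36 for Serinc1 (0.057), -0.32 for Ascc3 (0.17) and -0.15 for Ranbp2 (0.35), and that of Gpx4 was 0.30 (0.18). Gpx4-ps2 has one of the shorter transcripts of the set, at 782 bases, and Ascc3 and Ranbp2, at 7760 and 9608 bases, are among the longer ones.

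**Figure D2:**
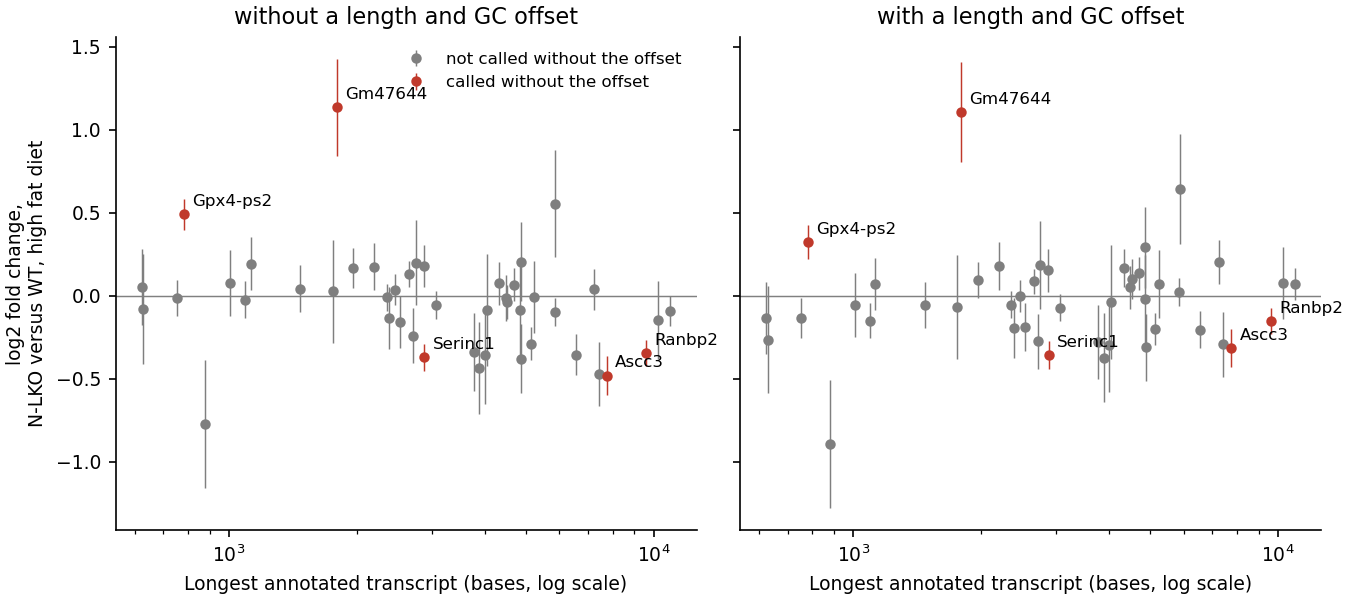
Log2 fold change (N-LKO versus WT liver, HFD; bars are the SE) of the 45 tested flanking genes against the longest annotated transcript in bases on a log axis, without and with an offset for length and GC content. With the offset Ranbp2 moves from -0.34 to -0.15 and Gpx4-ps2 from 0.49 to 0.32, while Serinc1 moves from -0.37 to -0.36.

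Under WD, none of the 55 flanking genes was called between N-LKO and WT liver by edgeR, as none of the 17829 genes in the table was (0.0%). DESeq2's Wald test called 0 of the 55 as well, and 99 genes in all. With only the 2 liver groups fitted, edgeR called 0 of 54 flanking genes and 6 of 16867 genes. The smallest adjusted p of a flanking gene was then 0.16, against 0.38 with the tumors in the fit. Nus1 itself, at a log2 fold change of -1.02 (SE 0.16), had an adjusted p of 0.15 in the edgeR fit with the tumors and was not called either. At an unadjusted p under 0.05, 2 of the 55 genes (3.64%) passed, against 12.4% of all genes, and under HFD 8 of the 45 (17.8%) against 22.7%.

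The 2 genes under WD were Gm47580 and Dnajb12. Gm47580, an unvalidated transcript inside Gopc and the nearest flanking gene, was at 1.03, 1.02 and 0.834 CPM in WT livers and at 1.91, 1.47 and 1.38 CPM in the N-LKO livers, a log2 fold change of 0.72 (adjusted p = 0.38). Under HFD it was at or below 0.520 CPM in every library. Dnajb12, a cochaperone of the endoplasmic reticulum membrane, was at 69.4, 82.5 and 69.2 CPM in WT livers and at 61.8, 58.9 and 57.5 CPM in the N-LKO livers, a log2 fold change of -0.31 (adjusted p = 0.39). Under HFD its groups overlapped, with a log2 fold change of -0.05.

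The genes called under HFD had these values under WD. Gpx4-ps2 was at 270, 196 and 290 CPM in WT livers and at 296, 246 and 344 CPM in the N-LKO livers, and the groups overlapped (log2 fold change 0.23, SE 0.19). Gm47644 was at 5.28, 1.56 and 4.17 CPM in WT livers and at 4.15, 1.56 and 3.08 CPM in the N-LKO livers, with the opposite sign to HFD (log2 fold change -0.32, SE 0.51). Ascc3 was at 81.0, 102.1 and 86.1 CPM in WT livers and at 90.9, 83.5 and 87.7 CPM in the N-LKO livers (log2 fold change -0.04, SE 0.16). These 3 genes overlapped between genotypes.

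Serinc1 was at 221, 241 and 209 CPM in WT livers and at 222, 226 and 233 CPM in the N-LKO livers under WD (log2 fold change 0.02, SE 0.14). Ranbp2 was at 295, 333 and 299 CPM in WT livers and at 299, 289 and 311 CPM in the N-LKO livers (log2 fold change -0.04, SE 0.15). Both overlapped between genotypes. With the offset for length and GC content the WD estimates moved away from 0 for 4 of the 5 genes and had their HFD sign. They were 0.31 (SE 0.21) for Gpx4-ps2, -0.26 (SE 0.16) for Ascc3, -0.21 (SE 0.16) for Serinc1 and -0.31 (SE 0.17) for Ranbp2, beside 0.32, -0.32, -0.36 and -0.15 under HFD with the same offset. Gm47644 stayed opposite in sign, at -0.49 (SE 0.44). None of the 5 was called in either diet with the offset, so whether these differences repeat between the diets depended on this correction. The lowest Gpx4-ps2 value and the highest Ascc3, Serinc1, Ranbp2 and Dnajb12 values of the WT WD livers were those of replicate 2, the library that stood apart.

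Gene by gene, the share of flanking genes with the same sign in both diets was close to that over all genes. Of the 45 flanking genes tested in both, 22 had the same sign (48.9%), against 51.7% of 13416 genes and 52.3% of the 618 other genes of chromosome 10. By direction, 9 were higher in N-LKO liver in both diets, 13 lower in both, 9 higher only under HFD and 14 higher only under WD by the sign of the estimate. Across these genes Pearson's r of the log2 fold changes was -0.18 and Spearman's rho -0.20, against 0.25 and 0.08 over all genes and 0.34 and 0.10 over the rest of chromosome 10. With the offset 22 of 45 flanking genes again had the same sign and r was -0.06, while over all genes the share was 55.5% and r 0.34. The diets share no library, and genes are not independent replicates.

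No flanking gene reached an unadjusted p under 0.05 in both diets, either with the same sign (0 of 45, against 2.12% of all genes) or with opposite signs (0 of 45, against 0.999%). DESeq2's Wald test also gave 0 with the same sign. Under WD the genotypes did not overlap in 4 of the 45 genes, or 8.89%, against 28.3% of all genes: Hace1, Lilrb4a and Vsir were higher and Dnajb12 lower. None of the 45 was separate in the same direction in both diets, against 2.48% of all genes. The genes separate under HFD and those separate under WD had no gene in common.

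**Figure D3:**
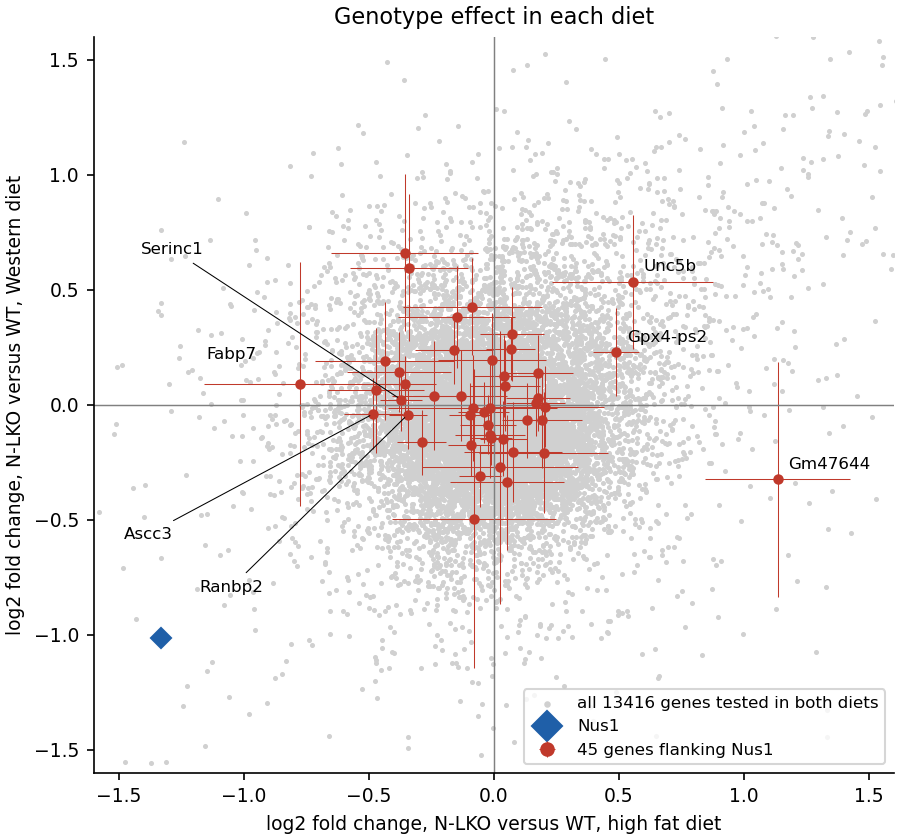
Log2 fold change of N-LKO versus WT liver under HFD (horizontal) and WD (vertical) for the 45 flanking genes tested in both (red, bars are the SE), Nus1 (blue diamond) and all 13416 genes tested in both (grey; 103 genes lie beyond the axes). The flanking genes scatter around 0 with 22 of 45 on the same side in both diets, whereas Nus1 lies at -1.33 and -1.02.

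The figure for agreement moved with the choice of genes. Among the 22 genes with at least 10 CPM in every liver group, 15 had the same sign (68.2%) and r was 0.19. Among the 27 tested genes with no stretch shared with another gene, a choice made after seeing the data, 16 had the same sign (59.3%) and r was 0.17. With the offset r was 0.35 at 10 CPM or more, 0.27 without shared stretches, -0.53 within 5 Mb and 0.31 beyond 5 Mb. Without it and with every library kept r was -0.18, and it was above 0 in 4 fits that left out 1 library: 0.23 without N-LKO HFD replicate 2, and 0.06, 0.11 and 0.0070 without WT HFD replicate 1, 2 and 4. These 4 fits tested 47, 46, 47 and 47 flanking genes in that order, against 45 with every library, because the filter was rerun. The sign of r thus moved with the libraries and the genes tested together, and which of these turned it was not tested. By distance, 1 of the 8 tested genes within 1 Mb of Nus1 had the same sign in both diets, 6 of 16 within 5 Mb, and 16 of 29 beyond 5 Mb. The 16 within 5 Mb had an r of -0.51 and a median absolute HFD change of 0.25, against 0.15 and 0.090 beyond, and they include the low, read-sharing genes Lilr4b, Lilrb4a and Gm47644.

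**Figure D4:**
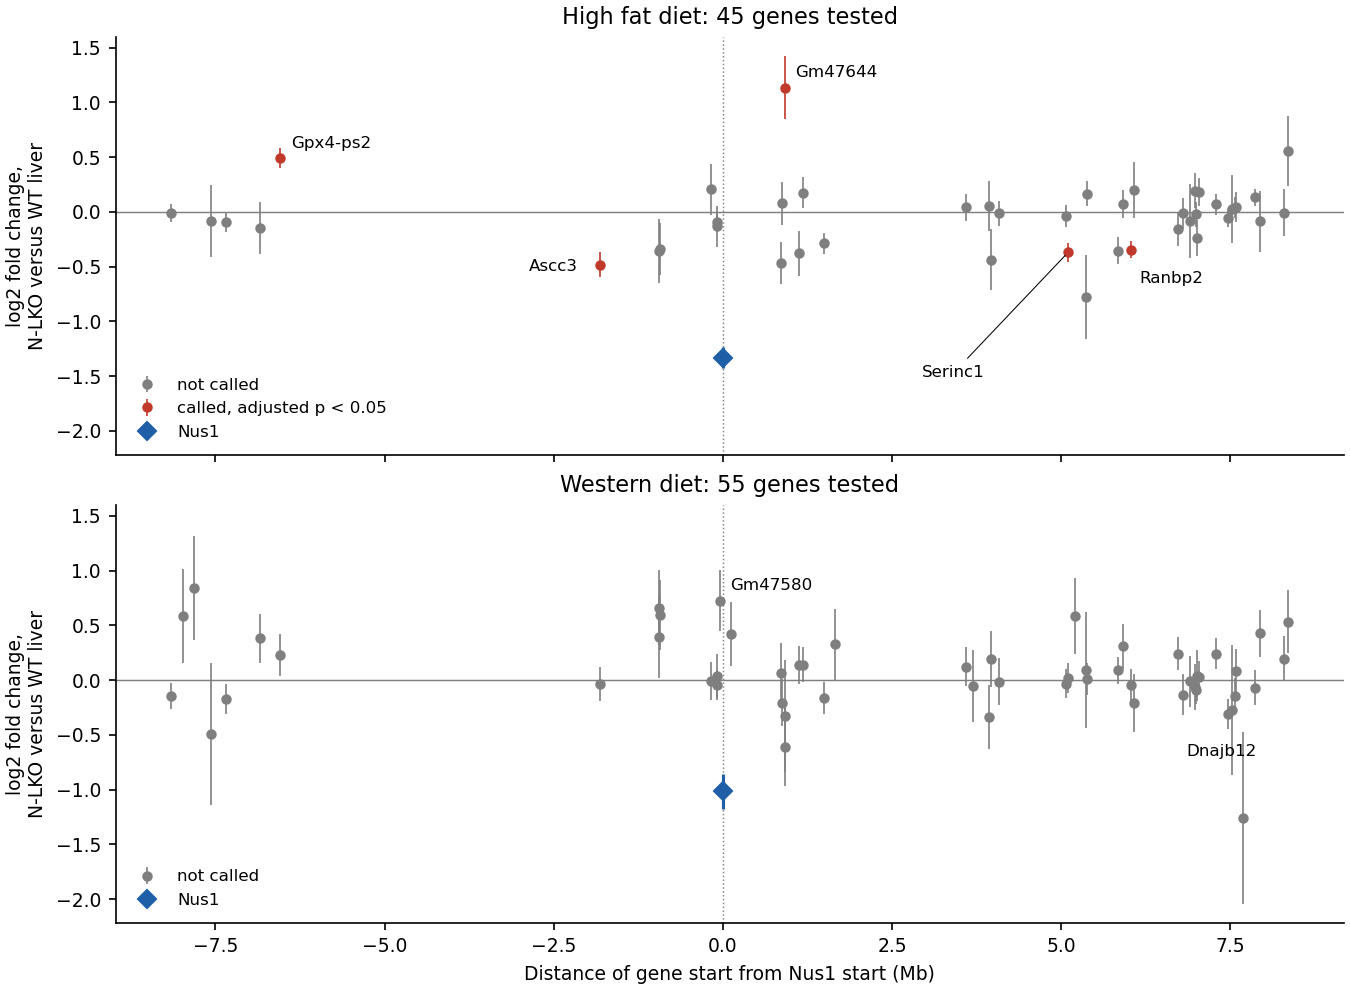
Log2 fold change of N-LKO versus WT liver (bars are the SE) against the distance of each gene's start from that of Nus1 in Mb, under HFD (45 genes) and WD (55 genes). Red marks the 5 genes called under HFD, at -6.54, -1.82, 0.920, 5.10 and 6.03 Mb, and the blue diamond is Nus1.

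When the 14 livers of both diets were fitted together, the genotype effect averaged over the diets was called for 1 of 54 flanking genes (1.85%), against 5.6% of 15850 genes. It was Gpx4-ps2, at 0.36 (SE 0.10, adjusted p = 0.047 by edgeR). The next were Ranbp2 at -0.19 (adjusted p = 0.072), Ascc3 at -0.25 (0.082) and Man1a at -0.22 (0.091). Unc5b, a netrin receptor, had the most similar estimates of the larger changes, at 0.56 under HFD and 0.54 under WD, but its livers overlapped in both diets and its average of 0.55 was not called (adjusted p = 0.17). The Gpx4-ps2 call was lost in 10 of 14 fits that left out 1 liver, with adjusted p between 0.028 and 0.13. Those 10 were the fits without replicate 1, 3 or 4 of N-LKO HFD, replicate 2, 3 or 4 of WT HFD, replicate 1 or 3 of N-LKO WD, and replicate 1 or 2 of WT WD.

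The difference between the diets in the genotype effect was called for 0 of 54 flanking genes by edgeR, against 1.62% of all genes. DESeq2's Wald test called 2 of 54, Serinc1 and Ranbp2, beside 923 of 15850 genes over the whole table. The smallest adjusted p by edgeR was that of Serinc1, whose effect was 0.42 higher under WD than under HFD (SE 0.12, adjusted p = 0.079). Ascc3 (0.46, adjusted p = 0.13), Ranbp2 (0.32, 0.14) and Gm47644 (-1.45, 0.18) also moved toward or past 0 under WD without being called. With the offset the difference between the diets was 0.19 for Serinc1, 0.11 for Ascc3 and -0.09 for Ranbp2, whose sign turned, and -1.56 for Gm47644 (adjusted p = 0.60, 0.82, 0.82 and 0.19). Without WT HFD replicate 3, 1 flanking gene was called by edgeR, beside 292 of 15949 genes over the whole table. It was Gcc2, a coiled-coil protein of the trans-Golgi network.

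The 8 tested genes within 1 Mb of Nus1 had a median absolute HFD change of 0.27, against 0.090 for the 29 beyond 5 Mb and 0.19 over all genes. Of the 8, Lilr4b, Lilrb4a, Dcbld1, Gm6627, Gm17823 and Gm47644 had HFD group means of at most 5.90 CPM. Their SE ran from 0.19 to 0.29, and wide estimates alone raise a median absolute change. Whether distance played a part was not tested. Gopc, Dcbld1 and Gm6627, among the nearest genes before Nus1, changed less under HFD than the median of the 8. Gopc, a Golgi-associated protein that sorts membrane proteins, starts at -81.7 kb from the start of Nus1 and was at 34.3 ± 2.26 CPM in WT livers and 32.1 ± 1.53 CPM in the N-LKO liver under HFD (SD, n = 4 each), with a log2 fold change of -0.10 (SE 0.08). Under WD it was at 39.3 ± 3.26 and 38.2 ± 4.26 CPM (SD, n = 3 each), with a log2 fold change of -0.04 (SE 0.14). Its libraries overlapped in both diets. Dcbld1, a membrane protein that starts at -184 kb, changed by 0.20 (SE 0.24) and -0.01 (SE 0.17) on the log2 scale, and the pseudogene Gm6627 inside Gopc by -0.13 and 0.04. Neither was called.

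On the other side the first flanking gene was the pseudogene Zfa-ps, with no more than 0.520 CPM in any HFD library and between 0.893 and 1.82 CPM under WD. Cep85l, a centrosomal protein 856 kb after Nus1, was at 28.4, 45.6, 21.8 and 33.0 CPM in WT livers and at 22.8, 28.5, 20.6 and 21.2 CPM in the N-LKO livers under HFD (log2 fold change -0.47, adjusted p = 0.17). Its groups overlapped, and under WD its log2 fold change was 0.06. Gm17823, a pseudogene inside Cep85l, changed by 0.08 under HFD and -0.20 under WD. Pln overlaps Cep85l and Gm47644 on the opposite strand. The counting is not stated to use strand, so its reads cannot be told from theirs by strand. Cep85l and Gm47644 overlap on the same strand, so strand could not separate those 2 in any case.

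Lilrb4a, Lilr4b and Gm49339, an overlapping cluster of leukocyte receptor genes, start at -937 to -927 kb from Nus1. Lilrb4a was at 6.86, 6.39, 5.55 and 4.78 CPM in WT livers and at 4.38, 2.88, 4.78 and 6.63 CPM in the N-LKO livers under HFD (log2 fold change -0.34). Under WD it was at 18.9, 7.99 and 16.975 CPM in WT livers and at 19.9, 23.0 and 23.5 CPM in the N-LKO livers (0.60, adjusted p = 0.46). The genotypes overlapped under HFD and were separate under WD, with the low WT value in replicate 2. The sum of the 3 genes was 9.73 ± 1.80 and 7.61 ± 2.74 CPM under HFD (SD, n = 4 each) and 31.6 ± 12.5 and 48.0 ± 8.12 CPM under WD (SD, n = 3 each). Beside it, the summed Kupffer cell and macrophage markers (6 of 6 measured, none at 0) ran from 115.5 to 157 CPM in WT livers and from 58.7 to 127.98 CPM in the N-LKO livers under HFD, and from 488 to 727 and from 456 to 531 CPM under WD. The part of cell content in the cluster's values was not tested.

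**Figure D5:**
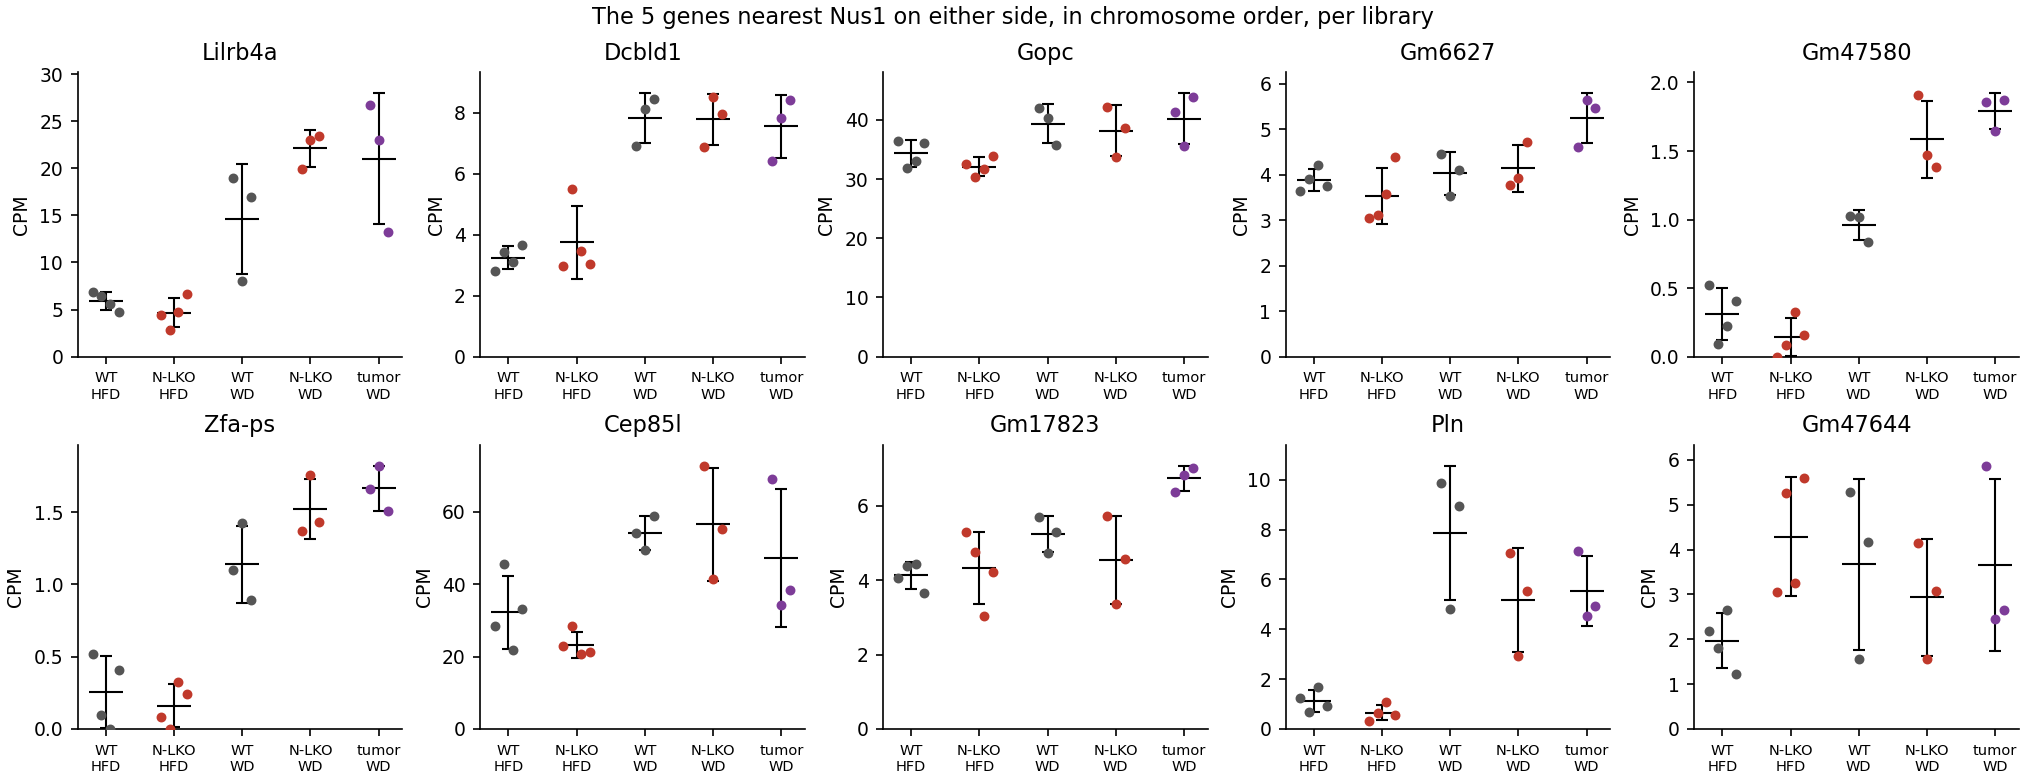
CPM of the 5 flanking genes nearest Nus1 on either side, in chromosome order, by group; each point is 1 library and the bars are the mean and SD (n = 4 for HFD groups, n = 3 for WD groups). WT and N-LKO livers overlap in both diets for Dcbld1, Gopc, Gm6627, Zfa-ps, Cep85l, Gm17823 and Pln; Gm47644 is separate under HFD alone, and Gm47580 and Lilrb4a are higher in N-LKO without overlap under WD alone.

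By function, 1 gene of the listed groups was called between genotypes. Of the 5 genes of Golgi, lysosome and lipid traffic (Gopc, Man1a, Serinc1, Smpdl3a and Psap), 1 was called under HFD, Serinc1, and none under WD. Psap, the precursor of the saposins that activate lysosomal lipid breakdown, was the most abundant flanking gene in CPM, at 432 ± 6.89 and 474 ± 25.7 CPM in WT livers and N-LKO liver under HFD (SD, n = 4 each) and 759 ± 51.0 and 724 ± 32.4 CPM under WD (SD, n = 3 each). Its log2 fold changes were 0.13 and -0.07, not called. Mcu, the pore of the mitochondrial calcium uniporter, had log2 fold changes of 0.18 under HFD and 0.03 under WD, not called.

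Of the 4 genes of stress and autophagy, none was called between genotypes. Atg5, part of the conjugation machinery of autophagosomes, was at 49.0 and 48.7 CPM in WT livers and N-LKO livers under HFD and 48.1 and 43.5 CPM under WD, and the heat shock factor Hsf2 was at 27.1 and 26.4 and at 32.3 and 31.5 CPM. Ddit4, an inhibitor of mTORC1, was near 2 CPM in both genotypes under HFD. Of the 4 genes of liver enzymes, transporters and secreted proteins (Pla2g12b, Oit3, Slc29a3 and Prep), log2 fold changes ran from -0.24 to -0.01 under HFD and from -0.17 to 0.20 under WD, and none was called.

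In the matrix and junction group (P4ha1, Dcbld1, Gja1, Unc5b and Spock2), 0 of 4 tested genes were called under HFD and 0 of 5 under WD. Gja1, the gap junction protein connexin 43, changed by -0.44 under HFD and 0.19 under WD. P4ha1, a prolyl hydroxylase of collagen, changed by -0.08 and -0.01. In the chromatin and division group, Mcm9, a helicase of recombination, Asf1a, a histone chaperone, and Anapc16, a subunit of the anaphase-promoting complex, changed by -0.38, 0.18 and 0.04 under HFD and by 0.14, 0.14 and -0.15 under WD, and none was called. Mcm9 and Asf1a overlap on opposite strands, and 64.3% of the 75-base stretches of Asf1a are shared on either strand.

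In the tumors, 2 of 55 flanking genes (3.64%) were called against WT liver by edgeR, compared with 14.9% of all genes. None was called against N-LKO liver, where 0.499% of all genes were. DESeq2's Wald test called 1 of 55 against N-LKO liver, Vsir, beside 1021 of 17829 genes over the whole table. Both comparisons share the tumors. Vsir, the immune checkpoint receptor VISTA of myeloid cells and T cells, was at 11.997, 11.5 and 10.5 CPM in WT liver, 15.1, 15.6 and 15.1 CPM in the N-LKO liver and 19.8, 35.1 and 20.9 CPM in tumor. The 3 groups were separate from each other in that order. The log2 fold change was 1.16 against WT liver (SE 0.21, adjusted p = 0.012) and 0.73 against N-LKO liver (SE 0.21, adjusted p = 0.12), and the first was called in all 9 fits that left out 1 library.

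Beside it, the summed lymphocyte markers (5 of 5 measured, none at 0) ran from 26.8 to 54.0 CPM in WT liver, from 67.6 to 76.5 CPM in the N-LKO liver and from 54.5 to 107 CPM in tumor. The Kupffer cell and macrophage markers ran from 488 to 727, from 456 to 531 and from 179 to 455 CPM in the same order. The part of cell content in the Vsir value was not tested.

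Dnajb12, at 52.3, 44.1 and 57.3 CPM in tumor, was lower than in WT liver without overlap (log2 fold change -0.53, SE 0.13, adjusted p = 0.031). The log2 fold change against N-LKO liver was -0.21. The call against WT liver was lost in 6 of 9 fits that left out 1 library: those without any 1 of the 3 WT livers, without N-LKO replicate 1 or 3, or without tumor replicate 2, with adjusted p up to 0.11. Prdm1, the transcriptional repressor Blimp-1, had the larger estimate but a wider spread, at 2.33, 0.948 and 2.38 CPM in WT liver and 3.11, 8.13 and 3.80 CPM in tumor (log2 fold change 1.41, adjusted p = 0.051). Against WT liver, 7 of 55 flanking genes were called without tumor replicate 1, beside 3819 of 18285 genes over the whole table. Without tumor replicate 3 the count was 5, beside 2226 of 18284 genes. Against N-LKO liver it was 3 without tumor replicate 1, beside 2193 of 18285 genes.

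A mean under 1 CPM in at least 1 group was found for 11 genes, whose values say little about genotype. They were Prdm1, Gm48065, Gm6983, Gm49339, Gm47580, Zfa-ps, Pln, Gm47917, Msl3l2, Pkib and Spock2. All but Gm6983 had too few counts for the HFD test. Spock2, a matrix proteoglycan, had the widest estimate under WD, -1.26, at 2 to 29 reads a library. Pkib, an inhibitor of protein kinase A, had an average effect of 0.60 over both diets (adjusted p = 0.18 by edgeR) with overlapping groups.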

How the data were processed

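Bulk RNA-seq of 14 livers and 3 tumors was analysed. Per the methods of the study, total RNA was depleted of ribosomal RNA and sequenced as single reads of 75 bases. A lower number of cycles is also stated there. The alignment given in the methods (TopHat2) differs from the submitters' processing notes, which name STAR, Partek and mm9. The deposited gene tables, 1 per diet, hold estimated counts made by the authors, unnormalized, in which reads matching several places are divided, so genes with near-identical copies are uncertain. The gene starts match GENCODE M21 (GRCm38) for 54 of the 55 flanking genes, by symbol and start, and coordinates are given on that build; Gm10273 differs.

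Counts were rounded, genes with few counts removed (filterByExpr), libraries scaled by TMM, and genotypes compared by the quasi-likelihood test of edgeR 4.0.16 (R 4.3.3), with Benjamini-Hochberg adjustment over all genes tested. The 8 HFD livers had a fit of their own, the 3 WD groups shared one, and the 14 livers were also fitted jointly over genes in both tables, with diet, genotype and their interaction. SE is the log2 fold change divided by the square root of F, an approximation. Each p-value sets a difference between groups against the variation between the samples of that fit, estimated with information shared across genes. Alternatives were DESeq2 1.42.0, its size factors, no filter, a block on replicate number, a length and GC offset, only the 2 groups compared, and leaving out each library. The scripts were tested on simulated counts. The flanking genes, gene lists and tests were chosen with earlier results of these data known. Named genes were those called, the 5 nearest Nus1 on either side, the 5 of highest CPM, and members of the role lists; others named were chosen after their values were seen. The values of 1 named gene are not reported here.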

Additional observations from a re-analysis of the deposited data

Results flagged for a closer look

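In 72 groups of 4 HFD libraries examined, for 36 named genes, 1 value lay far from the others of its group. Spock2 was at 0.936 CPM in WT HFD replicate 1, against at most 0.111 CPM in the other WT livers, and its gap to the nearest library was 0.881 of the group's range, above Dixon's critical value for 4 samples at 95% confidence. Chance flags about 1 in 20 such groups. The HFD counts of Spock2 did not exceed 9 reads, and the gene was not tested under HFD.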

How the results depend on the processing

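Of the 5 flanking genes called under HFD, 3 were called with no filter, 2 with a replicate block and 0 with a length and GC offset, and 3 were called among the protein-coding genes alone (a choice made after seeing the data). DESeq2's Wald test called 1 against N-LKO liver and 4 against WT liver in tumors, 2 for the average effect and 2 for the interaction. Its whole-table counts for these were 1021 and 3646 of 17829 genes, then 1372 and 923 of 15850. The tumor count against WT liver was 1 with the replicate block and 1 with only the 2 groups fitted, beside 1860 and 705 genes over the whole table. The average effect gave 0 with no filter and 0 with the offset, beside 850 and 835. The r between diets was -0.51 within 5 Mb, 0.19 (68.2% same sign) at 10 CPM or more, and 0.17 without shared stretches (also chosen after seeing the data). With the length and GC offset it was -0.06 over the 45 genes, and 0.35 at 10 CPM or more. Leaving out 1 library gave 0 to 6 genes called under HFD, 0 under WD, 0 to 3 and 1 to 7 for tumor against N-LKO and WT liver, 0 to 1 for the average, 0 to 1 for the interaction, 0 with p under 0.05 and the same sign in both diets, 42.2% to 53.3% same sign, and r from -0.29 to 0.23. In these fits the whole-table counts ran from 179 to 597 under HFD. They ran from 3 to 2193 for tumor against N-LKO liver and from 569 to 3819 against WT liver. No called gene changed sign.

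Deviations of same-numbered libraries of different groups had correlations of -0.12 to 0.11. Low correlations cannot exclude a pairing, such as a tumor and a liver of the same mouse. The numbers were the replicate numbers of the labels, and some differ from those in the library names. Whether they pair samples is thus not known, and the block's lost calls are not read as weaker effects. With the block, the counts over all genes were 494 under HFD and 1860 for tumor against WT liver, against 652 and 2653 without it. By setting, the whole-table counts were 999 (DESeq2) and 270 (offset) under HFD, 89 and 1021 (DESeq2) for tumor against N-LKO liver, and 257 and 923 (DESeq2), 1 (offset) and 0 (block) for the interaction. The biological coefficient of variation was 0.243 in the fit of the 3 WD groups, tumors included, against 0.149 in that of the HFD livers. The former is thus not the spread of the WD livers alone. The 3 against 3 livers limit what WD can show, and counts under 100 reads limit Gm47644 and the genes near 1 CPM.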
